A study of Mus musculus with 18 samples.

Results

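The genes described here encode transporters that carry bile constituents out of the hepatocyte or serve that export, 10 of the 54752 genes in the deposited count table. They were taken by symbol, by a rule with no threshold on measured values, but were chosen with earlier results of these data known. Of these, 7 encode proteins of the canalicular membrane, which faces the bile: Abcb11, Abcb4, Abcc2, Abcg2, Abcg5, Abcg8 and Atp8b1. The other 3, Abcc3, Abcc4 and Slc51b, encode proteins of the basolateral membrane, which faces the blood. Long RNA was counted in liver tissue of male C57BL/6 mice that were 6 weeks old at the start, with 15 mice per group entering and 6 per group sequenced in week 22. Mice of the CCl4_PTH group were injected with carbon tetrachloride (CCl4) into the peritoneum 2 times a week and had PTH by gavage every day. Mice of the CCl4 group had the same CCl4 injections and distilled water by gavage. Control mice had olive oil injections and distilled water by gavage. The labels write both PTH and PZH for the treatment, taken here as Pien Tze Huang, a traditional Chinese medicine. The labels call the CCl4 mice a liver cancer model, but the sources used here do not say if the piece sampled contained tumour or when the final injection was given. Libraries are named by group and the number in their label.

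Bile is made by active export. Abcb11 (the bile salt export pump, BSEP) moves bile salts into the canaliculus, Abcb4 (MDR2) places phosphatidylcholine in the outer leaflet of the canalicular membrane, the Abcg5 and Abcg8 proteins join as a heterodimer that exports sterols, and Abcc2 (MRP2) exports bilirubin glucuronides and other conjugates. Abcg2 (BCRP) exports a broad range of conjugates and drugs, and Atp8b1 is a flippase that keeps aminophospholipids on the inner leaflet. On the blood side, Abcc3 (MRP3) and Abcc4 (MRP4) pump conjugates and bile salts back into the sinusoid, and Slc51b is the β subunit of the organic solute transporter OSTα-OSTβ. In cholestatic liver, basolateral exporters are known as a route by which bile salts leave the cell when canalicular export is low.

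Promoters are shown for 5 of the 8 genes with an entry in the RefSeq promoter table (GRCm38.p6), because they make up the pairs whose levels are compared below. Each window runs 5′ to 3′ on the strand of its gene, over 250 bases before and 50 after the RefSeq start site. Abcg5 and Abcg8 are transcribed in opposite directions from start sites 110 bases apart, so their windows share 209 bases, and the Abcg8 window serves for both. It covers chr17:84682871-84683170 on the plus strand, with the GATA boxes (AGATAA or TTATCT) and the reverse TATA box in capitals. The Abcb11 window covers chr2:69342567-69342866 on the minus strand, with 2 inverted repeats in capitals. The Abcb4 window covers chr5:8893471-8893770 on the plus strand and has no capitals, since none of the searched motifs was found there. The Abcc2 window covers chr19:43782058-43782357 on the plus strand, and the Abcc4 window chr14:118706170-118706469 on the minus strand. In these, capitals mark the antioxidant response core on either strand and, in Abcc2, the nuclear receptor core AGGTCA.
Abcg8: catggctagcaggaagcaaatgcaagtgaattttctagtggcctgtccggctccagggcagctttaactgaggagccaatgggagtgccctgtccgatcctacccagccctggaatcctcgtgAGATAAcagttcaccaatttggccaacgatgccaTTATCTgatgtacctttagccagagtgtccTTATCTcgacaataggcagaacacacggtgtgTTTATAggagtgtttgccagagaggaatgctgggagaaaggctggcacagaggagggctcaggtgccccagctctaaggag
Abcb11: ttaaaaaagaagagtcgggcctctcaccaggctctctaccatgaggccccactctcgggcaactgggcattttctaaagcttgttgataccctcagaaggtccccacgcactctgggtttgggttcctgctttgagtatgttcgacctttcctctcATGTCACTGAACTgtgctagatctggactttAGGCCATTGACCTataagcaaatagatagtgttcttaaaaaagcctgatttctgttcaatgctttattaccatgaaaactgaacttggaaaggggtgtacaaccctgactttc
Abcb4: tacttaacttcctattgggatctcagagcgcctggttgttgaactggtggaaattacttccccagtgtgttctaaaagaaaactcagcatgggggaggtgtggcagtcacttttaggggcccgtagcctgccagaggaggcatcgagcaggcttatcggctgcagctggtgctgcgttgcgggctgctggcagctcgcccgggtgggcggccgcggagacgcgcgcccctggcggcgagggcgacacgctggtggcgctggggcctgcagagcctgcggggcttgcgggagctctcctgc
Abcc2: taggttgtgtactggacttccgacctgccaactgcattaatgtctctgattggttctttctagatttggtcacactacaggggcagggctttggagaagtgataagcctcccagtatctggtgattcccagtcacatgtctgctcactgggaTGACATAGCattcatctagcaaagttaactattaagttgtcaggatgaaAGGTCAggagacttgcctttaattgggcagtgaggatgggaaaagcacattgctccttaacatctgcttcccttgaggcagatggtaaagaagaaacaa
Abcc4: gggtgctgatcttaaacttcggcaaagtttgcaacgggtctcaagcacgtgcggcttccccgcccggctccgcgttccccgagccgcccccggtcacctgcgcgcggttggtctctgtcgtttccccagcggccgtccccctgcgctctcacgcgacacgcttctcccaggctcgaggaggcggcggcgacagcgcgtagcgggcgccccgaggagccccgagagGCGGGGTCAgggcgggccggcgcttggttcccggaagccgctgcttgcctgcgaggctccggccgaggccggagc

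The motifs were searched on both strands in all 27025 windows of the table. The GATA box AGATAA was found in 11.4% of the windows. The bases shared by the Abcg5 and Abcg8 windows held 3 of them, with first bases 127, 93 and 63 before the Abcg8 start site, and at least 3 were found in 0.111% of all windows. The reverse TATA box lay 31 bases before the Abcg8 start site, which is 84 before that of Abcg5 and in the direction of Abcg5, and TATAAA was found in 14.2% of windows. The receptor repeat AGGTCANTGACCT, an inverted repeat with 1 base between its arms and the kind of site that the bile acid receptor FXR is known to bind, was allowed 2 mismatches. It then occurred in 1.2% of windows and at 2 places in that of Abcb11. AGGCCATTGACCT, with 1 mismatch, began 63 bases before the start site, and ATGTCACTGAACT, with 2 mismatches, began 94 bases before it. The second arm of the nearer repeat is itself a match to AGGTCA, which 16.0% of windows held. The antioxidant core TGACNNNGC, to which NRF2 is known to bind with its partner Maf proteins, was in 12.5% of windows, and began 98 bases before the start site of Abcc2 (TGACATAGC) and 25 before that of Abcc4 (GCGGGGTCA, on the other strand). These are matches of letters, not sites shown to be bound.

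Libraries held between 67229863 and 118877267 counts, of which ribosomal RNA took 30.6% to 55.8%. Total counts were highest on average in the CCl4_PTH group, at 102600000 ± 16120000, against 76660000 ± 6491000 in the CCl4 group (SD, n = 6 each). Neither this nor any of 5 other comparisons of depth or ribosomal share passed adjustment (two-sided exact permutation tests, adjusted p between 0.0649 and 0.266), though the totals of CCl4_PTH libraries had unadjusted p of 0.0108 against CCl4 and 0.0217 against control libraries. Levels are given as CPM, counts scaled to a common library size after TMM normalisation, and a gene is called higher or lower at an adjusted p under 0.05 in edgeR's quasi-likelihood test over 21840 genes. The tissue label fitted the hepatocyte markers, 14 genes whose summed level was 34950 to 46110 CPM in CCl4_PTH livers, 18550 to 48860 in CCl4 livers and 41920 to 59310 in control livers. Some libraries stood apart from their group. CCl4_PTH 1 had 28190 CPM summed over 8 acute phase genes, against 2886 to 3871 in the other 5 CCl4_PTH livers, and 158 CPM over 6 neutrophil markers, against 11.9 to 19.8. It was also the lowest of its group in 5 of the 7 canalicular exporters. Controls 1 and 8 had 6.70 and 139 CPM of Cyp4a14, a fatty acid hydroxylase and textbook target of the receptor PPARα, against 1412 to 2133 CPM in the other 4 controls. The same 2 controls had 6473 and 13260 CPM of the lipogenic enzyme Scd1, against 750 to 1811 in the other 4. Cyp4a14 and Scd1 were chosen for mention after the values of these controls were seen. Exporter results that rest on these libraries are given with and without them.

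In CCl4 livers, canalicular exporters were lower and the basolateral exporter Abcc4 was higher than in control livers. Of the 7 canalicular genes, 6 fell and 1, Atp8b1, was not called. Of the 2 basolateral genes that passed the expression filter, Abcc4 rose and Abcc3 fell. The 9 tested genes thus included 8 called, where 47.4% of all tested genes were called in this comparison, 26.3% higher and 21.2% lower. Their median log2 fold change was −0.95, against 0.05 over all genes. In CCl4_PTH livers, 5 canalicular genes were higher than in CCl4 livers and Abcc4 was lower, while Abcb4, Atp8b1 and Abcc3 were not called. This made 6 of 9 called, where 12.1% of all genes were called, 7.1% higher and 4.95% lower, with a median of 0.54 against −0.03 over all genes. CCl4_PTH livers still differed from controls, with 4 canalicular genes and Abcc3 lower, Abcc4 higher and 3 genes not called. These 6 of 9 compare with 27.7% of all genes, 17.4% higher and 10.3% lower, and the median was −0.32 against 0.04. The comparisons share livers, the CCl4 group entering the first 2 and the control group the first and the third, so a low value in CCl4 livers enters both of the opposite changes. Since the members were chosen with earlier results known, these counts describe them and are no test of them against all genes. Ranges that did not overlap were seen for 6 of the 9 genes in CCl4 against control livers, where 26.1% of all genes had such ranges (14.8% higher, 11.3% lower). They were seen for 3 in CCl4_PTH against CCl4 livers, where the share was 4.07% (2.2% higher, 1.87% lower). They were seen for 2 in CCl4_PTH against control livers, where it was 14.5% (9.79% higher, 4.67% lower). Scaled by library sizes alone, which put the median of all genes at 0.63 in CCl4 against control livers and 0.51 in CCl4_PTH against control livers, 3 and 1 canalicular genes were called lower, in place of 6 and 4. The calls lost in CCl4 against control livers were those of Abcb4, Abcc2 (−0.29, adjusted p = 0.159) and Abcg2 (−0.36, adjusted p = 0.0503), and those lost in CCl4_PTH against control livers were of Abcb4, Abcg5 and Abcg2. In tissue RNA, fewer cells of a type and less RNA per cell cannot be told apart.

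**Figure D1:**
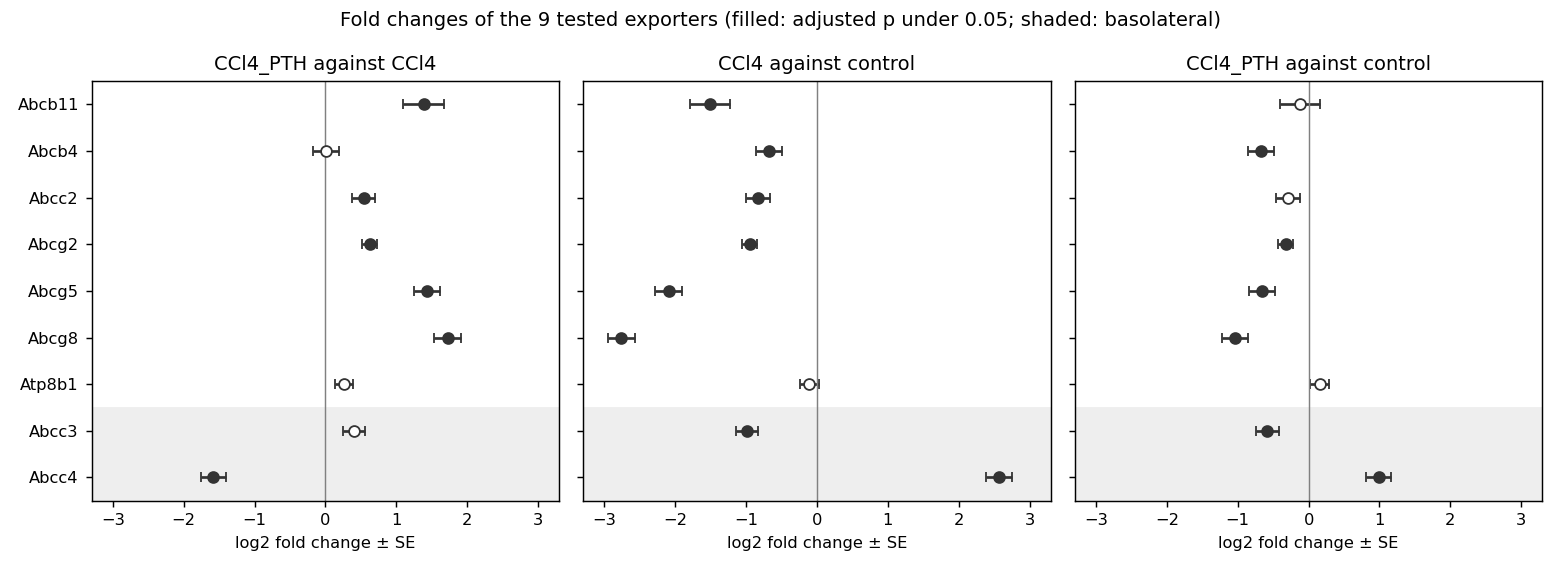
Log2 fold changes with SE (x axis) of the 9 tested exporters (y axis) in 3 comparisons, filled where the adjusted p was under 0.05, with basolateral genes on grey. Abcg8 had the largest fall in CCl4 against control livers (−2.76) and the largest rise in CCl4_PTH against CCl4 livers (1.73) of the 9, and Abcc4 lay on the opposite side of 0 in both.

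The sterol exporters showed the widest differences of the canalicular genes in CCl4 against control livers and in CCl4_PTH against CCl4 livers. Abcg8, one arm of the heterodimer, is a gene of chromosome 17 (chr17:84676302-84700333, plus strand, GRCm38). It had 24.3 to 68.4 CPM (median 50.2) in CCl4_PTH livers, 11.6 to 19.2 (median 15.0) in CCl4 livers and 82.7 to 114.7 (median 104) in control livers. The 3 groups did not overlap with each other. Abcg8 was 6.78-fold lower in CCl4 than in control livers (log2 fold change −2.76 ± 0.20 SE, adjusted p = 1.1e-08). It was 3.31-fold higher in CCl4_PTH than in CCl4 livers (1.73 ± 0.19, adjusted p = 4.21e-05), and was lower in CCl4_PTH than in control livers (−1.03 ± 0.19, adjusted p = 0.000482). CCl4_PTH 1 was the lowest of its group, and the next lowest, CCl4_PTH 8, had 42.1 CPM. Without CCl4_PTH 1, the difference of CCl4_PTH from CCl4 livers was 1.89 and that from control livers −0.91, both called.

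Abcg5, the other arm, lies head to head with it (chr17:84658234-84683011, minus strand). It had 24.0 to 58.6 CPM (median 43.3) in CCl4_PTH livers, 12.5 to 21.9 (median 14.4) in CCl4 livers and 56.7 to 73.7 (median 67.5) in control livers. CCl4 livers lay apart from both other groups, while CCl4_PTH and control livers overlapped through CCl4_PTH 7 and control 2. The log2 fold change was −2.09 ± 0.19 in CCl4 against control livers (adjusted p = 1.44e-07), 1.43 ± 0.18 in CCl4_PTH against CCl4 livers (adjusted p = 0.000205) and −0.66 ± 0.18 in CCl4_PTH against control livers (adjusted p = 0.0109). Without CCl4_PTH 1, the lowest of its group, the last 2 were 1.57 and −0.55, both called, while the last call was lost with scaling by library sizes alone (−0.19, adjusted p = 0.462). The exons of the pair share 82 bases on opposite strands in GENCODE M21, and whether the counting used strand is not stated, so a few reads of one may stand in the other. Within a library, where no scaling between libraries enters, the ratio of Abcg5 to Abcg8 counts per exon base was 1.06 to 1.36 (median 1.19) in CCl4_PTH livers, 1.15 to 1.58 (median 1.499) in CCl4 livers and 0.823 to 0.977 (median 0.916) in control livers. Per base of all annotated exons, all 6 libraries of each CCl4-injected group thus held more Abcg5 than Abcg8, and all 6 control libraries held less. The side of equality depends on the exon lengths used, but the differences between groups do not. The 2 genes that share the printed promoter moved in the same direction in every comparison, but by unequal amounts.

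**Figure D2:**
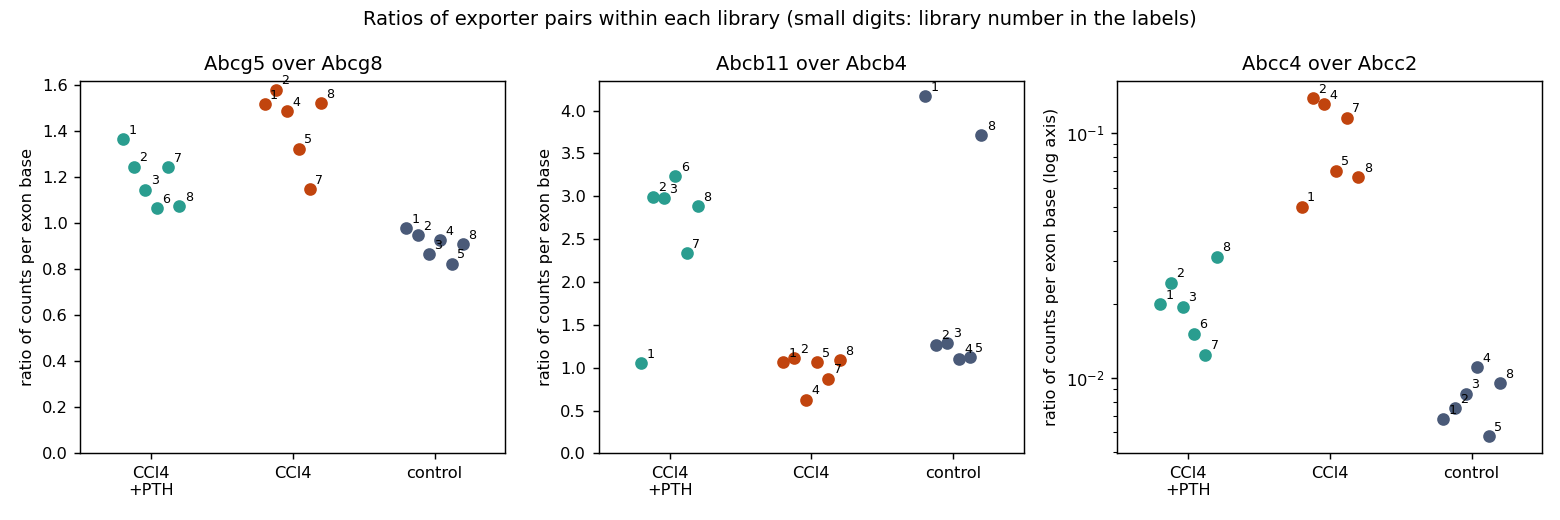
Ratio of counts per exon base (y axes, the third on a log scale) of 3 exporter pairs in each library (points, small digits give the library number) of the CCl4_PTH, CCl4 and control groups. Abcg5 over Abcg8 lay between 1.06 and 1.58 in all CCl4-injected livers and between 0.823 and 0.977 in controls, Abcb11 over Abcb4 was high in 5 CCl4_PTH livers and controls 1 and 8, and the 3 groups were apart in Abcc4 over Abcc2.

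The bile salt export pump gene Abcb11 (chr2:69238282-69342616, minus strand) was low in CCl4 livers and near control levels in most CCl4_PTH livers. It had 98.7 to 346 CPM (median 279) in CCl4_PTH livers, 46.9 to 132 (median 109) in CCl4 livers and 199.9 to 406 (median 251.3) in control livers. All CCl4 livers lay under all controls, and 5 of the 6 CCl4_PTH livers, at 239.9 CPM or more, lay above all CCl4 livers. CCl4_PTH 1, at 98.7 CPM, lay inside the CCl4 range. Abcb11 was 2.85-fold lower in CCl4 than in control livers (−1.51 ± 0.29, adjusted p = 0.000298) and 2.62-fold higher in CCl4_PTH than in CCl4 livers (1.39 ± 0.29, adjusted p = 0.0059). Without CCl4_PTH 1, the difference of CCl4_PTH from CCl4 livers was 1.58, also called. CCl4_PTH and control livers differed by −0.12 ± 0.28 (adjusted p = 0.785), with a 95% interval of −0.68 to 0.43, and this value turned positive without CCl4_PTH 1 (0.04) and without controls 1 and 8 (0.17). Those 2 controls were the highest, at 406 and 391 CPM, against 199.9 to 265 in the other 4. Without them, the fall in CCl4 against control livers was −1.23 and still called. Exons of Abcb11 overlap 155 bases of the antisense genes Gm13613 and Gm13614.

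The phospholipid genes behaved differently from Abcb11 and from each other. Abcb4 (chr5:8893717-8959231, plus strand) had 152 to 211 CPM (median 184) in CCl4_PTH livers, 137 to 222 (median 183) in CCl4 livers and 178 to 381 (median 333) in control livers. It was lower than in control livers in both CCl4 livers (−0.68 ± 0.18, adjusted p = 0.00501) and CCl4_PTH livers (−0.68 ± 0.18, adjusted p = 0.0103), and the CCl4_PTH and CCl4 groups overlapped almost fully. Between those 2 groups the log2 fold change was 0.0028 ± 0.18 (adjusted p = 0.995), and its 95% interval of −0.36 to 0.36 leaves room for a difference of that size in either direction. With scaling by library sizes alone neither fall below control livers was called, at −0.0745 in CCl4 livers (adjusted p = 0.702) and −0.14 in CCl4_PTH livers (adjusted p = 0.458). The overlap of both groups with controls came from controls 1 and 8, which had 178 and 192 CPM, against 329.9 to 381 in the other 4. Without those 2 controls the differences were −0.96 in CCl4 against control livers and −0.95 in CCl4_PTH against control livers, both called. The low Abcb4 of controls 1 and 8 stood beside low Cyp4a14 and high Scd1 in the same libraries, and the part of these in the result was not tested.

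The ratio of Abcb11 to Abcb4 per exon base therefore split the libraries in a way that the groups did not. It was 2.34 to 3.24 in 5 CCl4_PTH livers and 1.05 in CCl4_PTH 1. It was 0.6247 to 1.11 in all 6 CCl4 livers. It was 4.17 and 3.72 in controls 1 and 8 and 1.11 to 1.29 in the other 4 controls. A high ratio was thus seen in 7 libraries, and those 7 also had Fasn, the fatty acid synthase gene, at 218 to 1118 CPM, against 58.6 to 185 in the other 11, a gene chosen after these values were seen.

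Atp8b1, the flippase, was the only canalicular gene not called in any of the 3 comparisons. It had 35.6 to 65.2 CPM (median 45.3) in CCl4_PTH livers, 31.8 to 50.6 (median 38.2) in CCl4 livers and 36.3 to 47.2 (median 42.9) in control livers. The 3 groups overlapped. Its log2 fold change was −0.11 ± 0.13 in CCl4 against control livers (95% interval −0.37 to 0.15, adjusted p = 0.523), 0.26 ± 0.13 in CCl4_PTH against CCl4 livers (0.01 to 0.52, adjusted p = 0.199) and 0.16 ± 0.13 in CCl4_PTH against control livers (−0.10 to 0.41, adjusted p = 0.401). The second interval lies wholly above no change only through its normal approximation, and the quasi-likelihood test gave an unadjusted p of 0.0571. Its highest value, 65.2 CPM, came from CCl4_PTH 1, the library that was lowest of its group in Abcb11, Abcc2, Abcg2, Abcg5 and Abcg8. Of the genes that encode its partner subunit CDC50, Tmem30a fell in CCl4 against control livers (−0.56 ± 0.11, adjusted p = 0.000541) and rose in CCl4_PTH against CCl4 livers (0.59 ± 0.11, adjusted p = 0.00398). Tmem30b also fell in CCl4 against control livers (−0.63 ± 0.16, adjusted p = 0.0037), and its difference of CCl4_PTH from CCl4 livers was 0.33 ± 0.16 (adjusted p = 0.202).

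The canalicular exporters of conjugates, Abcc2 and Abcg2, moved by smaller amounts than the sterol exporters. Abcc2 (chr19:43782192-43840740, plus strand) had 464 to 674 CPM (median 573) in CCl4_PTH livers, 259 to 526 (median 370) in CCl4 livers and 615 to 762 (median 690.2) in control livers. All CCl4 livers lay under all controls, with CCl4 1 and CCl4 8 inside the CCl4_PTH range. Abcc2 fell in CCl4 against control livers (−0.83 ± 0.17, adjusted p = 0.000413). It was higher in CCl4_PTH than in CCl4 livers by 0.54 ± 0.17 (adjusted p = 0.0386), a call lost in 7 of the 18 fits that leave out 1 library, namely CCl4_PTH 2, 3, 6 or 7 or CCl4 2, 4 or 7, where the adjusted p was between 0.061 and 0.10. Without CCl4_PTH 1, the lowest of its group, it was 0.61 (adjusted p = 0.0176), and with scaling by library sizes alone it was not called (0.46, adjusted p = 0.119). CCl4_PTH and control livers differed by −0.29 ± 0.16 (95% interval −0.62 to 0.03, adjusted p = 0.199).

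Abcg2 (chr6:58584523-58695676, plus strand) had 36.5 to 62.1 CPM (median 49.7) in CCl4_PTH livers, 29.3 to 39.0 (median 31.9) in CCl4 livers and 55.6 to 67.3 (median 63.8) in control livers. CCl4_PTH 1, at 36.5 CPM, was the only CCl4_PTH library inside the CCl4 range. Abcg2 was 1.93-fold lower in CCl4 than in control livers (−0.95 ± 0.10, adjusted p = 1.003e-06) and 1.54-fold higher in CCl4_PTH than in CCl4 livers (0.62 ± 0.10, adjusted p = 0.00142). In CCl4_PTH against control livers it was lower by a small amount (−0.32 ± 0.10, adjusted p = 0.0243), a call that was lost with no low-count filter (adjusted p = 0.0588) and a sign that turned when libraries were scaled by size alone (0.17). Without CCl4_PTH 1, the difference of CCl4_PTH livers was 0.72 from CCl4 livers and −0.26 from control livers, both called.

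**Figure D3:**
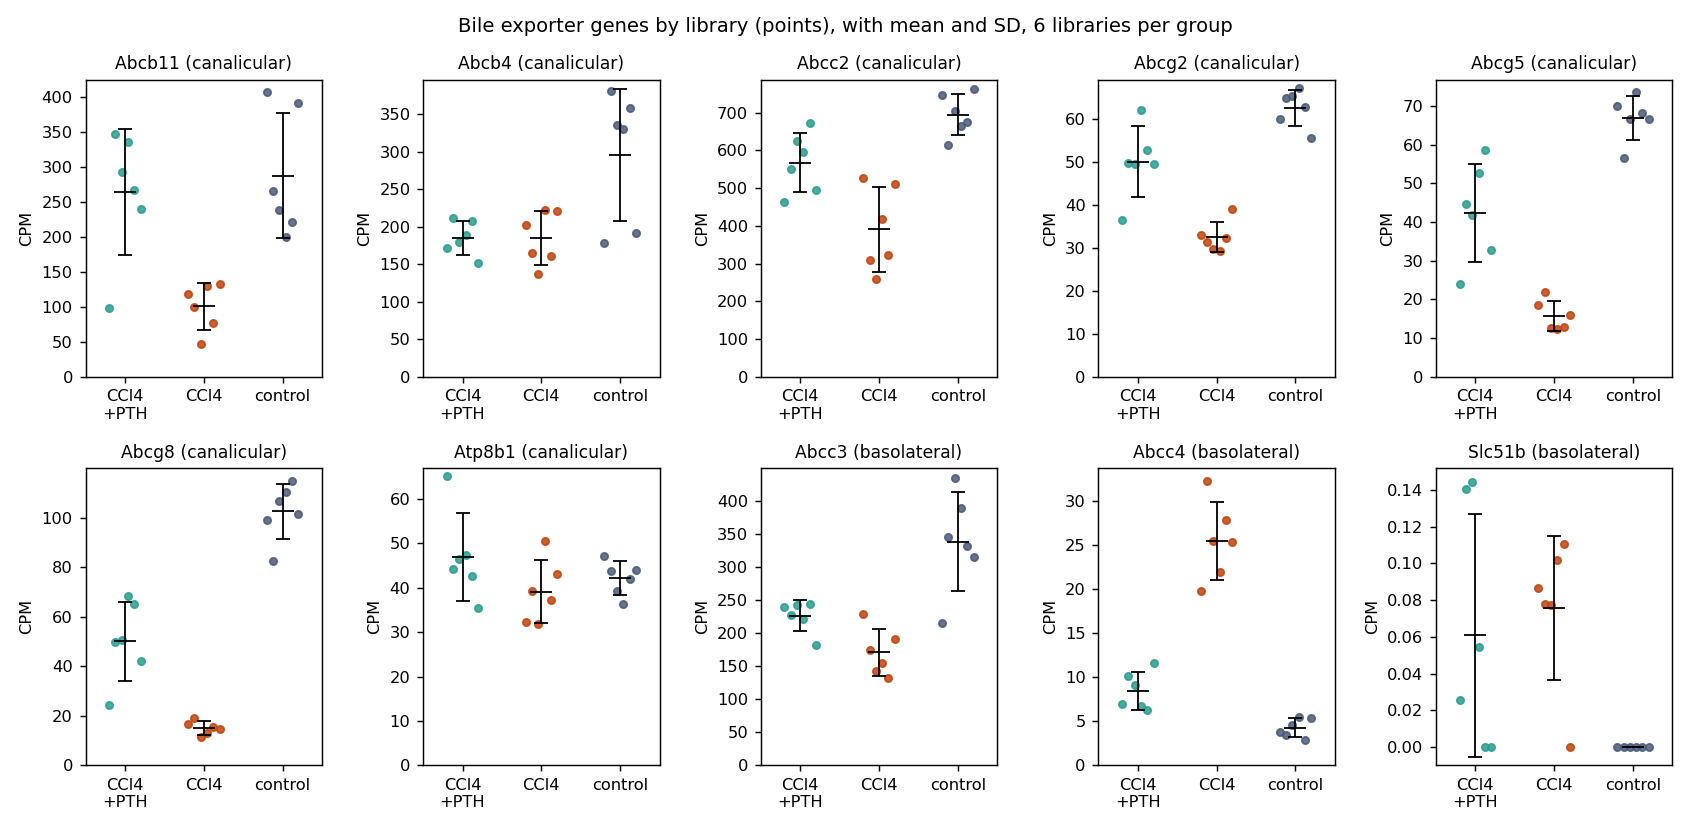
Level in CPM (y axes, from 0) of each of the 10 exporter genes in every library (points) of the CCl4_PTH, CCl4 and control groups, with mean and SD over 6 libraries (bars). Abcg8 and Abcc4 separate the 3 groups, Abcb4 is as low in CCl4_PTH as in CCl4 livers, Atp8b1 overlaps in all, and Slc51b is at 0 in all 6 controls.

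Among the basolateral exporters, Abcc4 ran opposite to the canalicular genes. Abcc4 (chr14:118482692-118706219, minus strand) had 6.29 to 11.6 CPM (median 8.06) in CCl4_PTH livers, 19.7 to 32.2 (median 25.4) in CCl4 livers and 2.92 to 5.497 (median 4.18) in control livers. The 3 groups did not overlap. It was 5.94-fold higher in CCl4 than in control livers (2.57 ± 0.19, adjusted p = 1.31e-08), 2.99-fold lower in CCl4_PTH than in CCl4 livers (−1.58 ± 0.18, adjusted p = 6.02e-05) and 1.99-fold higher in CCl4_PTH than in control livers (0.99 ± 0.18, adjusted p = 0.000515). CCl4_PTH 1, at 6.97 CPM, was not at an end of its group here. The ratio of Abcc4 to Abcc2 per exon base, a pump to blood over a pump to bile, was 0.0125 to 0.0313 in CCl4_PTH livers, 0.0501 to 0.139 in CCl4 livers and 0.00577 to 0.0111 in control livers. Its ranges too did not overlap, and Abcc2 was the more abundant in every library.

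Abcc3 (chr11:94343295-94392997, minus strand), the other basolateral pump of its family, did not follow Abcc4. It had 182 to 244 CPM (median 234) in CCl4_PTH livers, 133 to 229 (median 165) in CCl4 livers and 215 to 435 (median 339) in control livers. The CCl4 and control groups overlapped only through control 1, at 215 CPM, where the other 5 controls had 315 CPM or more. Abcc3 was 1.98-fold lower in CCl4 than in control livers (−0.99 ± 0.16, adjusted p = 5.12e-05) and lower in CCl4_PTH than in control livers (−0.58 ± 0.16, adjusted p = 0.00989). Without controls 1 and 8 these differences were −1.17 and −0.75, both called, while scaling by library sizes alone ended the second call (−0.0662, adjusted p = 0.707). Between CCl4_PTH and CCl4 livers it differed by 0.41 ± 0.16 (95% interval 0.10 to 0.71, adjusted p = 0.0978). That difference passed the threshold in voom (adjusted p = 0.0454), without CCl4 1 (adjusted p = 0.0291) and without control 1 (adjusted p = 0.0481).

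Slc51b (chr9:65412714-65422955, minus strand) was near the limit of detection and did not pass the expression filter, so it was not part of the main fit. In the fit with no low-count filter, 9 members were called in CCl4 against control livers and 6 in CCl4_PTH against control livers, Slc51b among them in both. The permutation tests given below passed adjustment only for CCl4 against control livers. It had 3, 21, 13, 7, 0 and 0 counts in the CCl4_PTH libraries, 7, 6, 8, 8, 12 and 0 counts in the CCl4 libraries, and 0 counts in all 6 control libraries. Counts were thus seen in 4 of 6 CCl4_PTH and 5 of 6 CCl4 livers and in no control. The mean level was 0.0608 ± 0.0664 CPM in CCl4_PTH livers and 0.0757 ± 0.0394 CPM in CCl4 livers (SD, n = 6 each). With a floor of 3 counts set over the control group, the pooled level of Slc51b was 8.38 times that floor in CCl4_PTH and 9.84 times in CCl4 livers. The floor covers counting error of the controls only. Counting error of the injected groups and the spread between livers do not enter these ratios, so they are not lower bounds. Two-sided exact permutation tests of its CPM gave p = 0.0152 for CCl4 against control livers (adjusted over 3 tests, 0.0455), 0.649 for CCl4_PTH against CCl4 livers (adjusted 0.649) and 0.0606 for CCl4_PTH against control livers (adjusted 0.0909). Its exons share 91 bases with the antisense gene Rasl12, so the origin of so few counts is uncertain. Slc51a, the gene of the partner subunit OSTα, was also low, at 0.288 ± 0.1003 CPM in CCl4_PTH, 0.240 ± 0.0939 in CCl4 and 0.392 ± 0.158 in control livers, and was not called in any comparison (adjusted p between 0.122 and 0.697).

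Counts per kilobase of exon give a rough ranking of the levels of different genes. The length used joins all annotated exons of a gene, whether or not liver uses them, so the order depends on this choice. In CCl4_PTH livers the order by mean CPM per kb was Abcc2 (66.5), Abcb11 (51.1), Abcc3 (39.8), Abcb4 (19.7), Abcg5 (15.6), Abcg8 (13.4), Atp8b1 (6.99), Abcg2 (6.14), Abcc4 (1.33) and Slc51b (0.0858). In CCl4 livers it was Abcc2 (45.8), Abcc3 (30.0), Abcb4 (19.7), Abcb11 (19.6), Atp8b1 (5.81), Abcg5 (5.79), Abcg8 (4.04), Abcg2 (3.98), Abcc4 (3.98) and Slc51b (0.107). In control livers it was Abcc2 (81.5), Abcc3 (59.5), Abcb11 (55.7), Abcb4 (31.5), Abcg8 (27.3), Abcg5 (24.7), Abcg2 (7.68), Atp8b1 (6.27), Abcc4 (0.669) and Slc51b (0). Abcc2 had the highest mean in each group. Neighbours in these orders overlapped in their ranges except at a few gaps. In control livers the gaps lay after Abcg5, after Atp8b1 and after Abcc4. In CCl4 livers they lay after Abcb11 and after Abcc4, so that Atp8b1, Abcg5, Abcg8, Abcg2 and Abcc4 formed a run of overlapping neighbours. In CCl4_PTH livers they lay after Abcc3, after Abcg2 and after Abcc4.

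The spread within groups also differed between genes. In control livers the coefficient of variation was 6.75% to 10.97% for Abcg2, Abcc2, Abcg5, Atp8b1 and Abcg8, and 21.9% to 31.2% for Abcc3, Abcc4, Abcb4 and Abcb11. In CCl4_PTH livers it was 34.2%, 32.1% and 29.9% for Abcb11, Abcg8 and Abcg5, in each of which CCl4_PTH 1 was lowest, and 10.3% for Abcc3. In CCl4 livers, CCl4 4 was the lowest of its group in 5 canalicular genes, and it also had the lowest hepatocyte marker sum of that group, 18550 CPM. The part of the hepatocyte markers in these values was not tested.

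**Figure D4:**
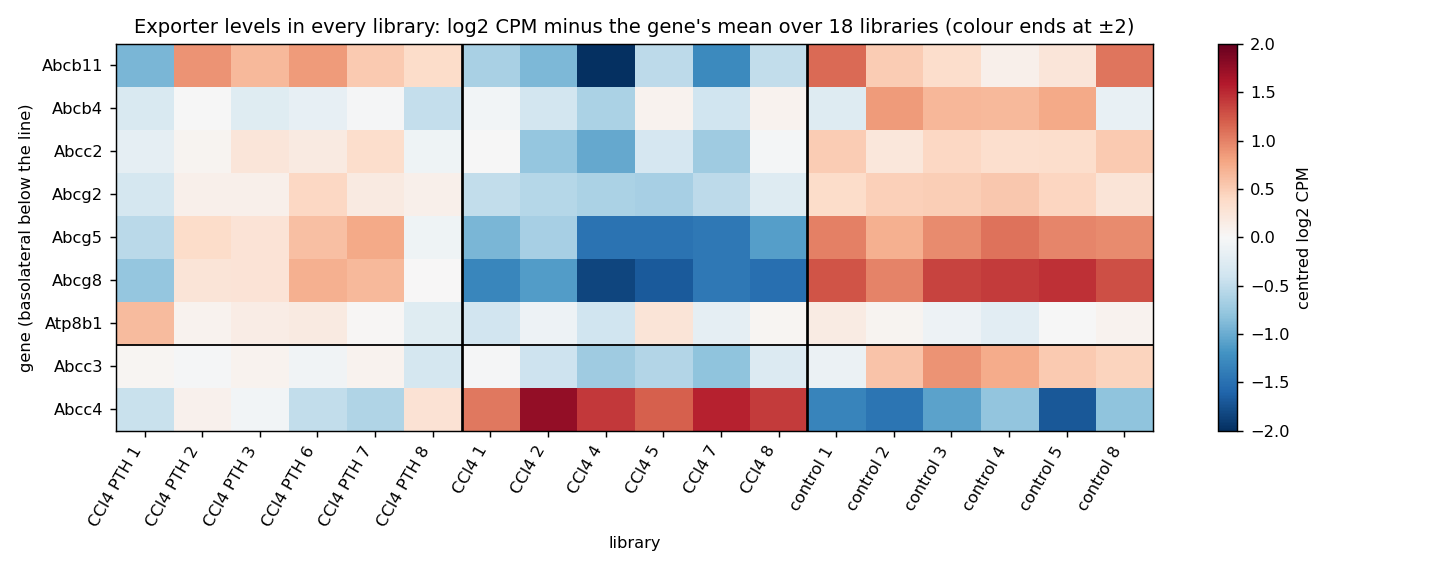
Log2 CPM of the 9 tested exporters (y axis) minus each gene's mean over 18 libraries, in every library (x axis), with red above and blue below the mean and the colour ending at ±2. CCl4 livers are blue in Abcb11, Abcg5 and Abcg8 and red in Abcc4, CCl4_PTH 1 is bluer than its group in 5 canalicular genes, and controls 1 and 8 are redder in Abcb11 and bluer in Abcb4 than the other controls.

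Genes with the most similar pattern were sought among 12169 protein-coding genes, by the root mean square difference of log2 CPM, each centred on its own mean over 18 libraries. For Abcc2 the nearest were Cyp2d22 (0.0919) and Peli2 (0.101), for Abcg2 Foxn3 (0.123) and Plcg1 (0.126), and for Atp8b1 Ipo7 (0.109) and Zmpste24 (0.114). For Abcb4 they were Hadha (0.161) and Hadhb (0.171), the 2 subunits of the mitochondrial trifunctional protein of fatty acid oxidation. Hadha averaged 164 ± 18.6 CPM in CCl4_PTH, 165 ± 31.8 in CCl4 and 301 ± 76.8 in control livers, so it shared with Abcb4 the equal level of both CCl4-injected groups and the wide spread of controls. For Abcb11 they were Haao (0.234) and Adra1b (0.252), for Abcc3 Acat1 (0.165) and 1110032A03Rik (0.168), and for Abcc4 Slc37a2 (0.352) and Arhgef2 (0.402). For Abcg5 they were Wdtc1 (0.286) and Pdp2 (0.326), with Abcg8 at 0.295, and for Abcg8 Cpsf4l (0.374) and Cyp2c67 (0.402), so Abcg5 was nearer to Abcg8 than either of these. The genes share libraries and depth, and these values are descriptions.

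Uptake of bile salts and organic anions on the basolateral side was also lower in CCl4 livers at the RNA level. Of 8 uptake transporter genes, 7 fell in CCl4 against control livers, with a median of −1.64. In CCl4_PTH against CCl4 livers 6 rose, with a median of 0.99. Over all tested genes, 47.4% were called in the first comparison (26.3% higher, 21.2% lower) and 12.1% in the second (7.1% higher, 4.95% lower). These shares are of edgeR's adjusted calls, and apply to such calls in the lists below as well. Slc10a1 (NTCP), the main sodium-dependent bile salt importer, averaged 138 ± 33.8 CPM in CCl4_PTH, 71.6 ± 37.8 in CCl4 and 228 ± 34.0 in control livers. It fell in CCl4 against control livers (−1.67 ± 0.28, adjusted p = 9.85e-05) and rose in CCl4_PTH against CCl4 livers (0.95 ± 0.28, adjusted p = 0.0332). Slco1a1, an organic anion importer, was lower still, at 15.3 ± 6.70 CPM in CCl4_PTH and 4.07 ± 1.20 in CCl4 livers, against 223 ± 66.8 in control livers. The summed level of the 8 was 869.7 to 1484 CPM in CCl4_PTH, 320.0 to 945.8 in CCl4 and 1767 to 2217 in control livers.

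Of 13 genes for partners and other exporters, 5 rose and 6 fell in CCl4 against control livers, and 3 rose and 2 fell in CCl4_PTH against CCl4 livers. The shares over all genes were 26.3% and 21.2% in the first comparison and 7.1% and 4.95% in the second. The drug and conjugate pumps Abcc1 (MRP1), Abcc5, Abcb1a and Abcb1b and the sterol exporter Abcg1 rose in CCl4 livers, as Abcc4 did. Abcc1 averaged 6.73 ± 1.24 CPM in CCl4_PTH, 14.5 ± 6.93 in CCl4 and 2.55 ± 0.328 in control livers. It was higher in CCl4 than in control livers (2.51 ± 0.24, adjusted p = 2.7e-07) and lower in CCl4_PTH than in CCl4 livers (−1.11 ± 0.23, adjusted p = 0.00537). Abcg1, which is abundant in macrophages, also fell in CCl4_PTH against CCl4 livers (−0.75 ± 0.22, adjusted p = 0.0321). Abcc6, Atp7b and Tmem30a fell in CCl4 against control livers and rose in CCl4_PTH against CCl4 livers, as most canalicular members did. Macrophage markers moved beside Abcc4, Abcc1 and Abcg1. Of 10, 8 rose in CCl4 against control livers, and their summed level was 190.2 to 334 CPM in CCl4_PTH, 250.5 to 588 in CCl4 and 83.5 to 137 in control livers. In CCl4_PTH against CCl4 livers 3 of them fell and 1 rose (median −0.74). Those that fell were Cd68 (−1.08 ± 0.21), Trem2 (−1.07 ± 0.24) and Ccr2 (−1.39 ± 0.28), and Clec4f, a Kupffer cell marker, rose (0.41 ± 0.12). The part of macrophages in these pump and exporter values was not tested.

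The nuclear receptors that govern bile acid and sterol transport were mostly lower in CCl4 livers, and most did not pass adjustment between the CCl4-injected groups. Of 12 genes, 9 fell and 1, Nfe2l2 (NRF2), rose in CCl4 against control livers, with a median of −0.77. In CCl4_PTH against CCl4 livers 1, Ppara, rose (0.81 ± 0.22, adjusted p = 0.0202), and 11 were not called, with a median of 0.30. DESeq2 called 2 of the 12 higher there and voom 4. The share of all genes called higher, 7.1%, is for edgeR's adjusted calls. At an unadjusted p under 0.05, 7 of the 12 were higher in edgeR and in DESeq2 and 8 in voom, with 0 lower. Shares of all genes for DESeq2, voom or unadjusted p are not given here, so these counts cannot be set against a background. Nr1h4 (FXR), the bile acid receptor, averaged 64.6 ± 9.51 CPM in CCl4_PTH, 47.5 ± 19.4 in CCl4 and 85.1 ± 7.78 in control livers. It was lower in CCl4 than in control livers (−0.84 ± 0.20, adjusted p = 0.00203), and its difference of CCl4_PTH from CCl4 livers was 0.45 ± 0.20 (adjusted p = 0.157). Its target gene Nr0b2 (SHP) showed the same calls, with −1.12 ± 0.25 in the first comparison (adjusted p = 0.00133) and 0.67 ± 0.25 in the second (adjusted p = 0.0895). The xenobiotic receptors Nr1i2 (PXR) and Nr1i3 (CAR) fell in CCl4 against control livers, with log2 fold changes of −1.10 ± 0.15 and −2.64 ± 0.33. Of the 4414 exon bases of Nr1i3, 3304 overlap the antisense gene Tomm40l. As the strand setting is not given, its counts may include reads of that gene. The oxysterol receptors Nr1h3 and Nr1h2 (LXRα and LXRβ) were not called in that comparison, with −0.14 ± 0.09 (adjusted p = 0.22) and −0.09 ± 0.12 (adjusted p = 0.567).

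Targets of LXR other than Abcg5 and Abcg8 did not share one direction. Of 8, 3 rose and 2 fell in CCl4 against control livers (median 0.03), and 2 rose and 1 fell in CCl4_PTH against CCl4 livers (median 0.0042). Among all genes, 26.3% rose and 21.2% fell in the first comparison, and 7.1% rose and 4.95% fell in the second. Lpcat3, a phospholipid remodelling enzyme, had the direction of Abcg5 and Abcg8, with −0.92 ± 0.12 in CCl4 against control livers (adjusted p = 6.64e-06) and 0.70 ± 0.12 in CCl4_PTH against CCl4 livers (adjusted p = 0.00196), while Abcg1 had the opposite one. Of 12 NRF2 targets, 7 rose and 2 fell in CCl4 against control livers (median 1.503), and 1 rose and 4 fell in CCl4_PTH against CCl4 livers (median −0.60). Srxn1, an antioxidant enzyme gene, averaged 27.1 ± 7.82 CPM in CCl4_PTH, 85.1 ± 23.2 in CCl4 and 21.99 ± 5.48 in control livers. It was higher in CCl4 than in control livers (1.95 ± 0.21, adjusted p = 8.87e-07) and lower in CCl4_PTH than in CCl4 livers (−1.65 ± 0.21, adjusted p = 0.000205), as Abcc4 was. Abcc2, whose window also held the antioxidant core, had the opposite direction, with −0.83 in the first comparison and 0.54 in the second. The part of NRF2 in the exporter values was not tested.

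Genes for proteins of the canalicular membrane and its junctions fell in part. Of 14, 8 fell and 2 rose in CCl4 against control livers (median −0.37), and 4 rose in CCl4_PTH against CCl4 livers (median 0.03). Among all genes, 21.2% fell and 26.3% rose in the first comparison, and 7.1% rose in the second. Rdx encodes radixin, which ties canalicular transporters to actin. It averaged 111 ± 17.6 CPM in CCl4_PTH, 71.7 ± 11.7 in CCl4 and 137 ± 7.04 in control livers, with −0.94 ± 0.12 in the first comparison (adjusted p = 5.58e-06) and 0.63 ± 0.12 in the second (adjusted p = 0.00379). Ceacam1, a canalicular adhesion protein, and Slc9a3r1 (EBP50), a scaffold of apical transporters, had the same calls. Ezr, the ezrin gene, which is expressed in cholangiocytes, rose in CCl4 against control livers (1.90 ± 0.25, adjusted p = 8.17e-06). Trafficking genes whose loss causes cholestasis in humans were not called in that comparison for Vps33b (0.27 ± 0.14) and Vipas39 (−0.05 ± 0.10), whereas Myo5b fell by 0.29 ± 0.08 on the log2 scale.

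**Figure D5:**
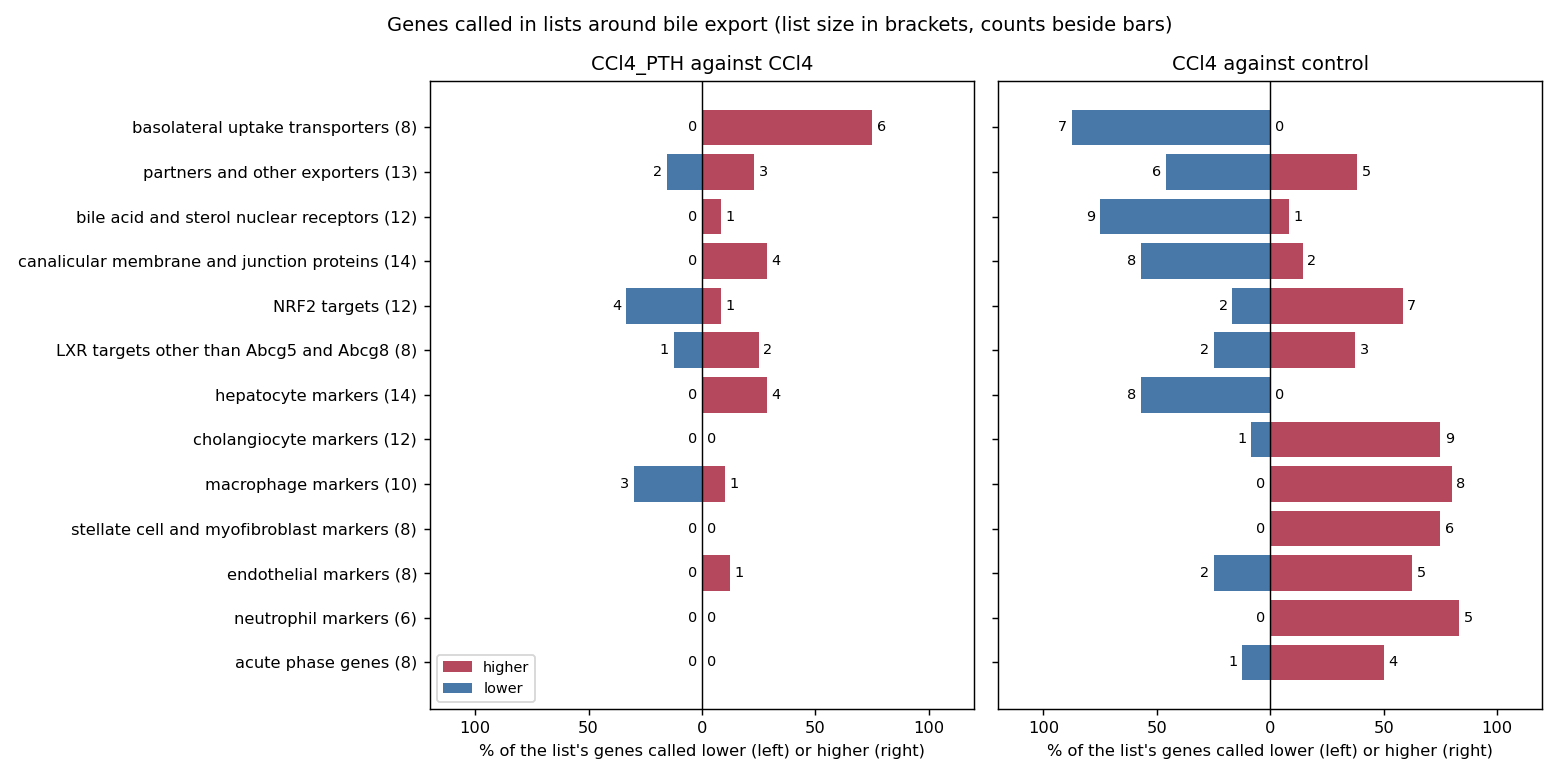
Share of the genes of 13 lists around bile export (y axis, list size in brackets) called higher (red, right) or lower (blue, left) in CCl4_PTH against CCl4 livers and in CCl4 against control livers (x axis, %), with counts beside the bars. Uptake transporters had 6 of 8 genes higher in the first and 7 of 8 lower in the second, while cholangiocyte markers had 0 called in the first and 9 higher in the second.

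Cell type markers moved beside the exporters in CCl4 against control livers. Of 14 hepatocyte markers 8 fell and none rose, with a median of −0.75, and Alb differed by −0.54 ± 0.25 (adjusted p = 0.0878). Of 12 cholangiocyte markers 9 rose and 1 fell, with summed levels of 134.5 to 321 CPM in CCl4_PTH, 148 to 267 in CCl4 and 47.5 to 76.1 in control livers. These sums mostly follow Spp1 and Cdh1, which averaged 105.7 and 54.4 CPM in CCl4 livers, where Krt19 had 1.65 and Epcam 3.20. Of 8 markers of stellate cells and myofibroblasts, 6 rose, and of 5 tested neutrophil markers all 5 rose. In CCl4_PTH against CCl4 livers, 4 of 14 hepatocyte markers rose in edgeR (median 0.49), 7 in DESeq2 and 8 in voom. For DESeq2, voom and unadjusted p, the shares of all genes are not given here. In the same comparison 0 of the cholangiocyte, stellate cell or neutrophil markers were called by edgeR, DESeq2 or voom, and at an unadjusted p under 0.05 edgeR gave 0, 2 and 0 of them, all lower. Of the 10 macrophage markers, each of the 3 tools called 3 lower and 1 higher. Of 8 endothelial markers 5 rose and 2 fell in CCl4 against control livers, where 26.3% and 21.2% of all genes did. Of 8 acute phase genes 4 rose and 1 fell there in edgeR and in voom, against 1 and 1 in DESeq2. In CCl4_PTH against CCl4 livers 0 were called by edgeR (5 higher at an unadjusted p under 0.05) or by DESeq2, against 1 lower by voom. Their summed level was 28190 CPM in CCl4_PTH 1 and 2886 to 3871 in the other CCl4_PTH livers, against 2890 to 5779 in CCl4 livers. Fits of these genes without CCl4_PTH 1 are not given here. Apoa2, a hepatocyte apolipoprotein, averaged 934.5 ± 169.9 CPM in CCl4_PTH, 563 ± 153 in CCl4 and 1592 ± 251.3 in control livers. The part of cell composition in the exporter values was not tested.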

How the data were processed

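Per the labels' protocols, TRIzol was used for liver RNA, ribosomal RNA was depleted, and NEBNext libraries gave paired reads of 150 bases on an Illumina HiSeq. Tools named in the submitters' processing notes include StringTie 2.1.5 and HISAT2 2.2.1, with the build GRCm38. The counting tool, annotation and strand setting are not given in the sources used here, which leaves overlapping antisense genes uncertain. The values the authors deposited are estimated counts, given per gene and library without depth scaling, all whole, so that rounding changed 0 of them. Of its 54752 identifiers, 54723 matched GENCODE M21, which gave positions and exon lengths, the latter over all annotated exons of a gene joined.

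All 3 comparisons came from 1 fit of edgeR 4.0.16 in R 4.3.3 (TMM scaling, filterByExpr with a minimum count of 10, robust quasi-likelihood F test, group as the only term), with Benjamini-Hochberg adjustment over 21840 genes and a threshold of 0.05. SE was taken from each log2 fold change and its F statistic. The 95% intervals use a normal approximation to that SE, which makes them somewhat narrower than the test implies. Single values per library went into exact permutation tests, two-sided. Alternatives were DESeq2 1.42.0, voom in limma 3.58.1, other scalings and filters, a replicate block, and fits without single libraries or without controls 1 and 8. The fit was tested on simulated counts.

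The members and the gene lists were chosen with earlier results of these data known. All 10 members are named, and of each list the 2 genes with the smallest p in CCl4 against control livers, besides Slc51a, Nr1h4, Nr0b2, Slc10a1, Krt19, Epcam, Alb and Saa1. Some genes that this rule takes are not reported here. Other genes of the lists that the text names, and Cyp4a14, Scd1 and Fasn, were chosen after their values were seen. Replicates are separate mice per the labels, and every one of 45 within-group pairs of libraries differed by more than counting noise (chi-square of at least 57.9 per gene).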

Additional observations from a re-analysis of the deposited data

Results flagged for a closer look

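Groups of 6 livers were searched for a library whose gap to its nearest neighbour was large against the range of the group (Dixon's criterion), over 29 groups of a member gene, and 2 were found, where chance gives about 1 in 20. Abcc3 was lowest in CCl4_PTH 8, at 182.2 CPM, where the other 5 CCl4_PTH livers had 222.4 to 244.1 CPM. Slc51b was lowest in CCl4 8, at 0.0 CPM, where the other 5 CCl4 livers had 0.0775 to 0.111 CPM, which is 6 to 12 counts.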

How the results depend on the processing

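Of the single-gene results repeated under another setting, 715 kept their direction and side of the threshold, 21 lost the call, 4 gained it and 16 changed sign. Scaling by library sizes alone put the median log2 fold change of all genes at 0.63 in CCl4 against control, −0.13 in CCl4_PTH against CCl4 and 0.51 in CCl4_PTH against control livers, where TMM gave 0.05, −0.03 and 0.04. Under it, canalicular genes called lower numbered 3 in CCl4 against control livers (6 with TMM) and 1 in CCl4_PTH against control livers (4 with TMM), and exporters called in the last comparison numbered 3 (6 with TMM). Signs turned for Atp8b1 in CCl4 against control livers (0.45, adjusted p = 0.0208), for Abcb4 in CCl4_PTH against CCl4 livers (−0.0688), and in CCl4_PTH against control livers for Abcb11 (0.33), Abcc2 (0.17) and Abcg2 (0.17). Abcb4 in CCl4_PTH against CCl4 livers was also negative with DESeq2 size factors in edgeR (−0.00963), with DESeq2 (−0.00963) and with a minimum count of 50 (−0.0127), and ran from −0.0712 to 0.0771 over fits without 1 library. Abcb11 in CCl4_PTH against control livers was 0.13 with voom and 0.17 without controls 1 and 8, and ran from −0.23 to 0.0369 without 1 library. The cause was not tested. With a replicate block, exporters called in CCl4_PTH against CCl4 livers numbered 3 (6 without it), and canalicular genes called higher numbered 2 (5 without it). The numbers were not taken as pairs, since deviations of 13 same-numbered pairs correlated at −0.209 to 0.0833, none over 0.1. Fits without 1 library called 5 to 7 of 9 exporters in that comparison. Depth limits only Slc51b, with 12 counts or fewer per CCl4 liver and 21 or fewer per CCl4_PTH liver.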
